A study of Mus musculus with 2 samples.

Results

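Ependymal cells, the multiciliated cells that line the brain ventricles, were read in single-cell RNA sequencing libraries of control (CT) and Opa1 conditional knockout (Opa1 cKO) hippocampus. They were selected on measured values: a cell counted as ependymal when at least 4 of the 8 transcripts Tmem212, Ccdc153, Rsph1, Dynlrb2, Fam183b, Foxj1, Meig1 and Cfap126 were detected in it. Eligible cells had over 600 but under 7500 genes and drew less than 20% of their transcripts from mitochondrial genes, whether or not a YFP transcript was seen. The rule found 625 ependymal cells among 10307 eligible cells, 94 of 4186 in CT and 531 of 6121 in Opa1 cKO. The animals carried Nestin-CreERT2, a tamoxifen-inducible Cre recombinase under the Nestin promoter, and ROSA26YFP, a Cre-dependent YFP reporter. Opa1 cKO animals also carried Opa1-Flox alleles. The CT library is labelled WT, and its protocol names an Opa1-Flox negative control although its strain entry lists Opa1-Flox as well. Tamoxifen was given at 8 weeks of age, and live YFP+ hippocampal cells were sorted 4 weeks later, at 12 weeks. Cells of 3 mice per genotype were pooled into 1 library (10x Genomics 3′ v2), so cells are not replicates of the genotype and no test between genotypes was made. Ranges in parentheses are 95% intervals that cover counting error alone.

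Ependymal cells beat tufts of motile cilia to move cerebrospinal fluid. The axoneme of a motile cilium is built from doublet microtubules, dynein arms that drive bending, radial spokes and a central pair, and it is switched on as a programme by Foxj1 and the Rfx factors. OPA1 is the dynamin-like GTPase that fuses inner mitochondrial membranes and shapes cristae, where the respiratory chain sits, and cells with faulty respiration often turn on the integrated stress response (ISR), a translation-control pathway whose transcription factor is ATF4. The inducible Cre can act in neural stem cells and in ependymal cells if they express it when tamoxifen is given.

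Few cells lay near the threshold of the marker rule. In CT, 5 cells had 2 of the markers, 2 had 3, 1 had 4 and 2 had 5, while 20, 26 and 45 cells had 6, 7 and 8. In Opa1 cKO the same counts were 70, 13, 10 and 9, followed by 38, 154 and 320. The median CT ependymal cell had 2575 UMIs (unique molecular identifiers, each a counted mRNA molecule) from 1429 genes, and the median Opa1 cKO cell 3166 UMIs from 1697 genes. Their UMIs summed to 256007 and 1844076, so CT limits precision where all Opa1 cKO ependymal cells are set beside it. The libraries shared 36 cell barcodes, of which 0 CT and 2 Opa1 cKO ependymal cells carried one.

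Markers of other cell types set the purity of the class. The defining choroid plexus transcript Ttr had 0 UMIs in both groups, and 5 of 12 choroid plexus markers and 6 of 11 microglial markers were at 0. Folr1 was the most abundant gene of the choroid plexus list, with 259.2 CPM in CT and 260.2 in Opa1 cKO (CPM, UMIs per 1000000 UMIs of genes that are not mitochondrially encoded). Sostdc1, next in that list, was at 225.8 and 111.5 CPM (log2 ratio −1.02, −1.46 to −0.56). The list summed to 543.6 and 416.7 CPM (−0.38, −0.65 to −0.10). The labels describe the sorted cells as neural stem cells and their progeny and do not name ependymal cells. Astrocyte and neural stem cell (NSC) transcripts were present: 31 CT cells (32.98%) and 228 Opa1 cKO cells (42.94%) also met the minimum of 5 of 8 markers used for the NSC pool, the comparison class of astrocytes and stem cells. A wider list of 14 astrocyte and NSC markers, led by Aldoc, summed to 4353 CPM in CT and 5201 in Opa1 cKO. The minimum of any other class was met by 1 CT and 12 Opa1 cKO cells. The summed markers of oligodendrocytes stood at 443.2 and 651.2 CPM (most abundant Cnp), those of mural cells at 990.9 and 1052 (Acta2), and those of progenitors and neurons at 526.8 and 236.6 (Sox4). Tanycyte markers summed to 209.1 and 127.9 CPM (−0.71, −1.15 to −0.24). Scn7a, the most abundant of them, was at −0.95 (−1.43 to −0.45).

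Ependymal cells made up 2.246% of the eligible CT cells (1.818 to 2.741) and 8.675% of the Opa1 cKO cells (7.982 to 9.408). Both shares follow a sort on YFP fluorescence, and whether the sort or the tissue set them cannot be told apart. A YFP transcript was detected in 39 CT cells (41.49%) and 257 Opa1 cKO cells (48.4%). Opa1 itself (ENSMUSG00000038084, chr16:29579334-29654884, plus strand, GRCm38) was counted 9 times in CT ependymal cells and 8 times in those of Opa1 cKO, 37.63 and 4.392 CPM. The log2 ratio of Opa1 cKO over CT was −3.10 (−4.67 to −1.55), compared with −1.28 in the NSC pool. The level of Opa1 thus followed the labels, although this 3′ assay can also count transcripts that lack the deleted exons.

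Transcripts of the 13 mitochondrially encoded genes took a median of 6.552% of the UMIs of a CT ependymal cell and 0.7293% of those of an Opa1 cKO ependymal cell. The quartiles were 5.169% and 8.343% in CT and 0.4706% and 1.237% in Opa1 cKO, with full ranges of 1.395% to 19.69% and 0% to 11.79%. The ranges overlapped, but the interquartile ranges lay far apart. Below 1% there were 0 of 94 CT cells, which allows a share of up to 3.191% (3 cells of 94; the exact interval reaches 3.848%), and 353 of 531 Opa1 cKO cells (66.48%, 62.29 to 70.49). Between 1% and 3% there were 5 and 127 cells, and at 3% or more 89 CT cells and 51 Opa1 cKO cells (9.605%, 7.235 to 12.43). Most knockout cells were thus below a level that no control cell reached, and a minority lay in the range of most control cells, with a median of 4.9%. The plot of mitochondrial share by cell shows this split.

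**Figure D1:**
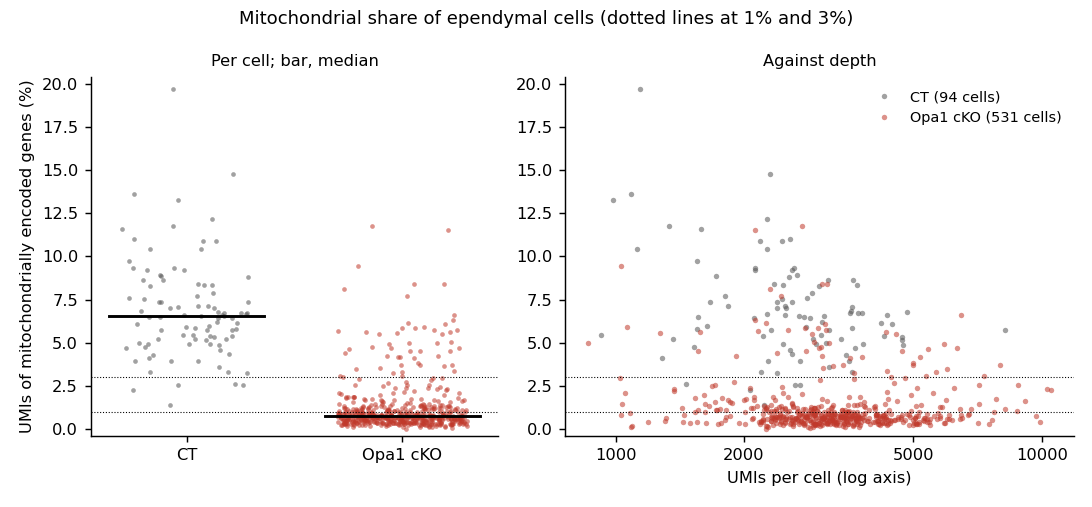
Share of UMIs from mitochondrially encoded genes (%) in each of 94 CT and 531 Opa1 cKO ependymal cells, by library on the left with the median as a bar, and against UMIs per cell (log axis) on the right. No CT cell lies below the lower dotted line at 1%, and 353 Opa1 cKO cells do, 40% of those with fewer than 2000 UMIs and 70.5% and 66.2% of those with 2000 to 4000 and more.

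The share below 1% was larger in ependymal cells than in the other classes of the Opa1 cKO library. In those classes it was 48.93% of 4549 NSC pool cells, 22.63% of 243 mural cells and 0 of 147 oligodendrocytes (exact interval up to 2.478%). Differences between classes were not tested. In CT, 4 of 3290 NSC pool cells were below 1%. Summed over cells, the log2 ratio of the mitochondrial share was −2.42 (−2.44 to −2.39) in ependymal cells, −1.23 (−1.24 to −1.22) in the NSC pool, −0.54 (−0.58 to −0.50) in mural cells and −0.01 (−0.04 to 0.01) in oligodendrocytes. Oligodendrocytes of the same libraries therefore showed the level of this measure in a class without the difference.

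The share was low with and without a detected reporter. Among Opa1 cKO ependymal cells without a YFP UMI the median was 0.7789% and 63.5% of 274 cells (57.5 to 69.21) were below 1%. With a YFP UMI the median was 0.6947% and 69.65% of 257 cells (63.63 to 75.21) were below 1%. In CT the medians were 6.704% and 6.408%. Depth made little difference above 2000 UMIs: 40% of the 50 Opa1 cKO cells with fewer UMIs were below 1%, 70.5% of the 339 cells with 2000 to 4000 UMIs and 66.2% of the 142 deeper cells.

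The mitochondrially encoded mRNAs did not differ by one common factor. In ependymal cells mt-Co1 and mt-Co3, subunits of cytochrome c oxidase, had log2 ratios of −3.04 (−3.11 to −2.97) and −2.88 (−2.95 to −2.82). Their UMIs were 3779 and 3693 in CT and 3304 and 3605 in Opa1 cKO, where far more cells were read. The complex III subunit mt-Cytb followed at −2.69 (−2.77 to −2.61). The ATP synthase subunit mt-Atp6 was at −2.22 (−2.28 to −2.15) and the complex I subunit mt-Nd4 at −2.33 (−2.43 to −2.22). The smallest difference among genes with over 100 UMIs in CT was that of mt-Nd2, a complex I subunit, at −0.41 (−0.62 to −0.20), with 228 and 1234 UMIs. mt-Co2 and mt-Nd1 lay between these, at −1.63 and −1.49. mt-Atp8 and mt-Nd6 had 3 and 7 UMIs in CT and are not read.

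As a result the mix of mitochondrial transcripts differed. mt-Co1 was 22.4% of all mitochondrially encoded UMIs in CT ependymal cells and 14.5% in Opa1 cKO, while mt-Nd2 was 1.35% and 5.43% and mt-Nd1 5.78% and 11% of them. In the NSC pool mt-Co3 and mt-Co1 were again the lowest, at −1.60 and −1.47, and mt-Nd2 was at −0.62. Oligodendrocytes had −0.35, −0.10 and 0.39 for these genes. Nuclear copies of mitochondrial sequence share letters with these genes, and reads from them cannot be told apart here.

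**Figure D2:**
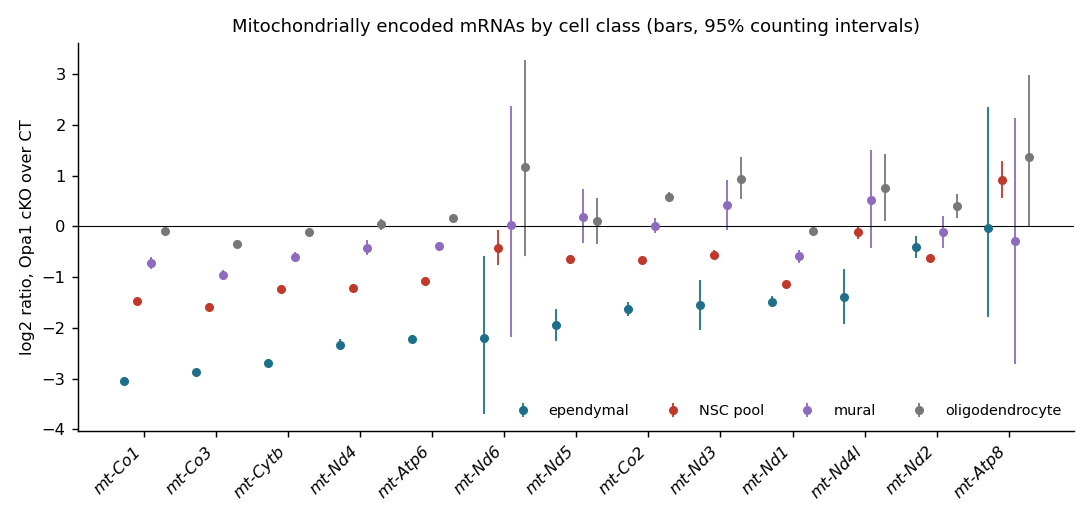
Log2 ratio of Opa1 cKO over CT for each mitochondrially encoded mRNA in ependymal, NSC pool, mural and oligodendrocyte cells; bars are 95% counting intervals. Ependymal values lie below those of the 3 other classes for every gene but mt-Nd2 (−0.41) and the rarely counted mt-Atp8, and are lowest for mt-Co1 (−3.04).

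Nuclear-encoded mRNAs were compared on CPM that leave the mitochondrial genes out of the total. Of 6155 genes with at least 50 UMIs over both groups, 4.74% were at least 2-fold higher in Opa1 cKO and 3.9% at least 2-fold lower, with a median log2 ratio of −0.03 and outer deciles of −0.74 and 0.70. Intervals lay above 0 for 6.95% of these genes and below 0 for 9.6%. Because CT held few UMIs, a gene with low counts can pass this minimum through the Opa1 cKO library alone, and the counts of list members below are descriptions to be set beside these shares.

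The respiratory chain genes of the nucleus were not lower alongside those of the mitochondrion. The 78 measured subunits had a median log2 ratio of 0.26, and 1 was at least 2-fold higher and 0 lower. Intervals lay above 0 for 28 and below 0 for 1, Ndufa3 at −0.26, beside 6.95% and 9.6% of all genes. Sdhd of complex II was at 1.00 (0.13 to 2.03), Atp5c1 of ATP synthase at 0.90 (0.45 to 1.38) and Uqcrc2 of complex III at 0.85 (0.26 to 1.50). Cox4i1, the most abundant subunit, had 1639 CPM in CT and 1827 in Opa1 cKO. Oligodendrocytes had the same median of 0.26 and mural cells 0.18, and the cause of this small difference was not tested.

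Genes that keep mitochondrial DNA and its transcription had a median of −0.31 over 10 measured of 21, where the NSC pool had 0.31. Of these 10, 0 were at least 2-fold higher and 2 lower, beside 4.74% and 3.9% of all genes. Intervals lay above 0 for 0 and below 0 for 2, beside 6.95% and 9.6%. The list summed to −0.24 (−0.45 to −0.02). Tfb2m, a mitochondrial transcription factor, was counted at 12 and 43 UMIs (−1.09, −2.04 to −0.03), and Tfam, the protein that packages mitochondrial DNA, 6 and 72 UMIs (0.66, −0.54 to 2.15). Slirp, which stabilizes mitochondrial mRNAs together with Lrpprc, was at −0.32 (−0.71 to 0.09) and Lrpprc at −0.30. Most of these intervals span 0. Mitochondrial chaperones and proteases had a median of 0.12 over 14 genes, with Hspa9, the mitochondrial Hsp70, at 0.44 (−0.03 to 0.95) where the NSC pool had 1.66. Genes of fusion, fission and cristae had a median of 0.14 over 14, with the cristae protein Chchd10 at 4394 and 5236 CPM (0.25, 0.16 to 0.35).

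Among the stress genes, Slc3a2 and Slc7a11 were higher in Opa1 cKO beyond counting error, and the other members had too few UMIs in CT to tell. The study's list of 6 ISR genes summed to 276 CPM in CT ependymal cells and 591.9 in those of Opa1 cKO (1.10 on the log2 scale, 0.74 to 1.48). Slc3a2 (chr19:8706882-8723369, minus strand), the heavy chain of amino acid transporters, rests on 25 and 549 UMIs, 104.5 and 301.4 CPM (1.53, 0.95 to 2.17). Slc7a11 (chr3:49892526-50443614, minus strand), the cystine transporter that pairs with it, had 14 and 220 UMIs, 58.54 and 120.8 CPM (1.05, 0.27 to 1.94). These are the members at least 2-fold higher, and both intervals lay above 0. Atf4 itself had 9 and 96 UMIs (0.49, −0.50 to 1.66), Ddit3, which encodes the stress factor CHOP, 7 and 92 (0.79, −0.31 to 2.14) and Ddit4, an inhibitor of mTORC1, 11 and 105 (0.33, −0.57 to 1.37). Chac1, a glutathione-degrading enzyme, had 0 and 16 UMIs, too few for a ratio at the depth of CT. For these last genes a difference was not detectable at this depth. The list was chosen by the study on these samples, so it is no independent evidence of its direction.

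The levels of Slc3a2 have a counterpart outside this class. After each cell was thinned to 1500 UMIs, which left out 9 shallower CT and 20 Opa1 cKO ependymal cells, 16.47% and 25.44% of them had an Slc3a2 UMI (22.34% and 44.07% before thinning), and so did 16.24% and 26.39% of oligodendrocytes, whose median depths were 3374 and 3230 UMIs. The thinned shares of ependymal cells with Slc3a2 are thus at the level of oligodendrocytes, whose own CPM ratio was 0.40 (−0.09 to 0.91). Slc7a11 was seen in 2.353% of CT and 9.98% of Opa1 cKO ependymal cells (5.319% and 17.14% before thinning), and in 0.8547% and 2.083% of oligodendrocytes. For both genes the intervals of the thinned CT and Opa1 cKO ependymal shares overlapped. They were 9.308 to 26.09 and 21.72 to 29.45 for Slc3a2, and 0.2862 to 8.242 and 7.522 to 12.91 for Slc7a11.

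Other ATF4 targets had a median log2 ratio of 0.36 over 30 measured of 51. Of these, 6 were at least 2-fold higher and 0 lower, beside 4.74% and 3.9% of all genes. Intervals lay above 0 for 8 and below 0 for 0, beside 6.95% and 9.6%. Without the cells that also met the NSC pool minimum the median was 0.14 over 14, with 3 at least 2-fold higher. With only cells that had a YFP UMI it was 0.95, so the size of this median depends on which cells are kept. Atf5 (chr7:44812256-44816658, minus strand), a transcription factor of the mitochondrial stress response, had the highest lower bound of all genes: 1 and 215 UMIs, 4.181 and 118 CPM, a difference of 4.82 on the log2 scale (2.33 to 10.13). After thinning it was seen in 0 of 85 CT cells (0 to 4.247) and in 13.89% of Opa1 cKO cells (11.01 to 17.2; 1.064% and 24.48% before thinning), with 4.274% and 2.083% of CT and Opa1 cKO oligodendrocytes. Nupr1 (chr7:126623249-126630861, minus strand), a stress-induced nuclear protein, had 3 and 163 UMIs (2.83, 1.26 to 5.13), and thinned shares of 2.353% and 8.023% (2.128% and 15.63% before) beside 0.8547% and 3.472% of oligodendrocytes. The NSC pool was higher for both genes as well, with log2 ratios of 3.06 (2.82 to 3.31) for Atf5 and 3.75 (3.62 to 3.89) for Nupr1. Atf3, a stress-induced factor of the same family as Atf5, had 6 and 153 UMIs (1.74, 0.59 to 3.21). Slc7a5, the light chain of the leucine transporter, had 2 and 73 UMIs (2.26, 0.36 to 5.33) and Eprs, a tRNA synthetase, 9 and 162 (1.24, 0.28 to 2.40). Among serine synthesis enzymes, Phgdh was at 0.83 (0.19 to 1.54), Psph at 0.72 (0.36 to 1.09) and Psat1 at 0.28. Slc38a2, an amino acid transporter, was at −0.37 (−0.82 to 0.11) in ependymal cells and at 1.70 in the NSC pool.

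The stress transcripts with the steepest ratios in the NSC pool were rare in ependymal cells. Trib3, a pseudokinase induced by ATF4, had 0 and 13 UMIs, Asns, asparagine synthetase, 2 and 43 (1.50, −0.44 to 4.59), and the mitokine Gdf15 2 and 25 (0.71, −1.29 to 3.84). In the NSC pool the log2 ratios of Asns and Gdf15 were 5.97 and 7.74. The mitokine Fgf21 had 0 and 1 UMI. Across the lists, the ISR genes had a median of 0.79 in ependymal cells (5 measured), 1.52 in the NSC pool (6), 0.86 in mural cells (4) and −0.03 in oligodendrocytes (3). Other ATF4 targets had medians of 0.36, 1.41, 1.03 and −0.10. Set beside the NSC pool, ependymal cells had the larger difference in mitochondrial transcripts and the smaller medians of both lists. The difference between the classes was not tested, and the measured genes are not the same in each.

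**Figure D3:**
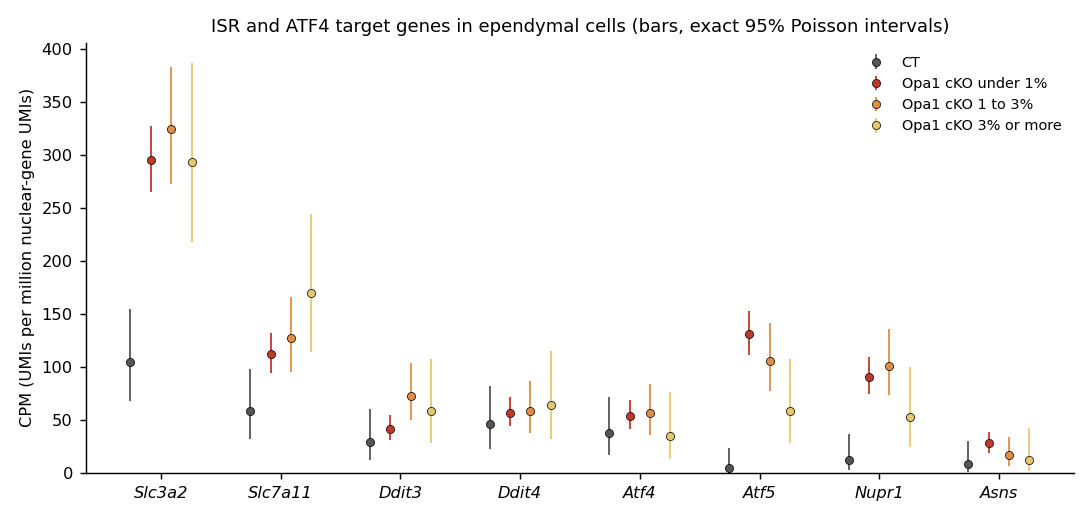
CPM of ISR genes and ATF4 targets in CT ependymal cells and in Opa1 cKO ependymal cells grouped by mitochondrial share (under 1%, 1 to 3%, 3% or more); bars are exact 95% Poisson intervals. Slc3a2 stood at 104.5 CPM in CT and between 293.1 and 324.2 CPM in the 3 Opa1 cKO groups, and Atf5 ran from 58.62 to 130.6 CPM across them.

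ATF4 binds composite CCAAT-enhancer and cyclic AMP response elements. The letters TGATGNAA (N, any base), searched on both strands in the 300 bases around each RefSeq start (250 before, 50 after, GRCm38.p6), occurred in 4.51% of 27025 genes, in 2 of the 6 ISR genes and in 16 of 39 matched genes of the other ATF4 targets. Windows of 4 genes described in the text are shown, 30 bases each, 5′ to 3′ on the gene's strand, with the motif in capitals. For Nupr1 and Atf3 it lies on the other strand, and the capitals show its complement read backwards.
Nupr1, chr7:126625562-126625591, minus strand: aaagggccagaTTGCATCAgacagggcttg
Atf3, chr1:191183425-191183454, minus strand: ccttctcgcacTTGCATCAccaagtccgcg
Slc7a11, chr3:50443661-50443690, minus strand: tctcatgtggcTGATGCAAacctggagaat
Asns, chr6:7693214-7693243, minus strand: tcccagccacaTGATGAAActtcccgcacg
The 8 measured genes with the letters had a median log2 ratio of 0.62 and the 20 without them 0.36. A match is a description of letters only, and Slc3a2, Atf5, Ddit3 and Atf4 had none in this window.

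Other programmes differed less, by their medians. Cdkn1a, the p53-induced cell cycle inhibitor, was at 171.4 and 221.8 CPM (0.37, −0.09 to 0.87), whereas the NSC pool was at 3.55. NRF2 targets had a median of 0.12 over 15 genes and p53 targets 0.20 over 11. Hmox1, heme oxygenase, had 0 and 22 UMIs. The intermediate filament gene Gfap, raised in reactive glia, was at 246.7 and 257 CPM (0.06, −0.33 to 0.47), and the NSC pool at 1.16. Cholesterol synthesis genes had a median of 0.29 over 11, although the summed log2 ratio was −0.08 (−0.30 to 0.14) and the SREBP-controlled genes Hmgcs1 and Insig1, the 2 members at least 2-fold lower, were at −1.05 (−1.65 to −0.42) and −1.07 (−1.89 to −0.17). The metallothioneins Mt1, Mt2 and Mt3 were lower, at −0.14, −0.20 and −0.38, with oligodendrocytes at −0.19, −0.18 and −0.52. B2m, the light chain of MHC class I, had 13 and 296 UMIs (1.58, 0.78 to 2.51), while Ifitm3 was at 0.06. The list of interferon-induced and antigen presentation genes had a median of 0.17 over 7 of 23. Of these, 3 were at least 2-fold higher, beside 4.74% of all genes. They were B2m, Bst2 and Rtp4, the last 2 on 3 and 2 CT UMIs with intervals that span 0. Cytosolic ribosomal protein genes had a median of 0.15 over 78, against 0.67 in the NSC pool.

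Immediate early genes, which answer stimulation within minutes, had the highest median of all lists with at least 5 measured genes, 0.94 over 17 of 18. Of these, 8 were at least 2-fold higher and 0 lower, beside 4.74% and 3.9% of all genes. Fos, the most abundant, had 126 and 2086 UMIs, 526.8 and 1145 CPM (1.12, 0.86 to 1.39). Junb had 133.8 and 358 CPM (1.42, 0.91 to 1.98), and Btg2, which is also a p53 target, 79.44 and 249.8 CPM (1.65, 0.99 to 2.40). The orphan receptor gene Nr4a1 had 1 and 87 UMIs (3.51, 1.00 to 8.83) and the factor Klf4 3 and 120 (2.39, 0.81 to 4.69). Not all members followed: Egr1 and Jund were both at 0.11. Fos was at 0.59 (0.23 to 0.95) in oligodendrocytes and 0.09 in the NSC pool, and Junb at 0.97, 0.50 and, in mural cells, 1.00. Without cells that met the NSC pool minimum the ependymal median was 1.22 over 15. The list's medians were 0.59 in oligodendrocytes (5 measured), 0.19 in mural cells (14) and 0.09 in the NSC pool (17). Some of these genes were thus higher in oligodendrocytes of the same library as well, and the part of the library in the result was not tested.

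Among other genes with high lower bounds, Serpinb1a, an inhibitor of neutrophil proteases, had 33 and 706 UMIs, 138 and 387.6 CPM (1.49, 0.99 to 2.04), and Igfbp7, a secreted binder of insulin-like growth factors from the list of surface and secretion genes, 1 and 90 UMIs (3.56, 1.05 to 8.88). A single cell held 17.8% of the Igfbp7 UMIs in Opa1 cKO. Hist2h2ac, a histone gene, had 0 and 70 UMIs, and its log2 ratio was 1.62 with CT set at 3 counts (lower bound 1.28). The ubiquitin hydrolase gene Uchl3, with 0 and 61 UMIs, was at 1.42 in the same way (lower bound 1.07), where oligodendrocytes were at 0.76. Histone genes resemble each other closely, so the value of Hist2h2ac is uncertain.

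Several genes with the lowest ratios were lower in every class. Nptn, a cell adhesion glycoprotein, was at −2.06 (−2.76 to −1.34) in ependymal cells, −2.37 in oligodendrocytes, −2.96 in mural cells and −2.04 in the NSC pool. Pam, the peptide-amidating enzyme, was at −1.83 (−2.32 to −1.33), −1.76, −1.85 and −0.90 in the same order. Actb, cytoplasmic actin, was at 4624 and 2395 CPM (−0.95, −1.04 to −0.85), with −0.97, −0.91 and −0.92 in the other classes. Rps27rt, a copy of a ribosomal protein gene that shares reads with its parent, was at −1.41, −1.19, −0.83 and −0.69. For these genes the library and the genotype cannot be told apart, and their ratios were of like size in oligodendrocytes, whose mitochondrial share was the same in both libraries. Tsku, Nck2 and Serping1, at −1.65, −2.01 and −1.76 in ependymal cells on 16 to 21 CT UMIs, had 0 UMIs in oligodendrocytes and could not be set beside them. In the NSC pool they were at −1.66 (−2.15 to −1.18), −0.71 (−1.75 to 0.34) and −0.56 (−1.32 to 0.20). Grk4 and Dennd6a, at −1.83 and −1.73, rested on 21 and 17 CT UMIs. Their NSC pool ratios were −0.40 (−0.82 to 0.02) and −1.09 (−1.43 to −0.76).

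Motile cilium genes lay close to control. Over 130 measured of 152 motile cilium genes the median log2 ratio was −0.14, with 2 at least 2-fold higher and 3 lower, beside the 4.74% and 3.9% of all genes. Intervals lay above 0 for 7 and below 0 for 19, beside 6.95% and 9.6% of all genes. Summed, these genes took 27300 and 26160 CPM (−0.06, −0.10 to −0.02). Of the transcripts that chose the cells, given only as a description, Tmem212 had 2864 and 3338 CPM, Ccdc153 3387 and 3123 CPM, and Rsph1 1359 and 1472 CPM. Dynlrb2, Fam183b, Meig1 and Cfap126 had log2 ratios of −0.02, −0.05, 0.28 and 0.11. Foxj1 (ENSMUSG00000034227, chr11:116330704-116335399, minus strand), the master regulator among them, was the lowest, at 627.2 and 373.9 CPM on 150 and 681 UMIs (−0.75, −1.0 to −0.48). It stood at 381.2, 371.2 and 328.3 CPM in Opa1 cKO cells below 1%, from 1% to 3% and at 3% or more.

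**Figure D4:**
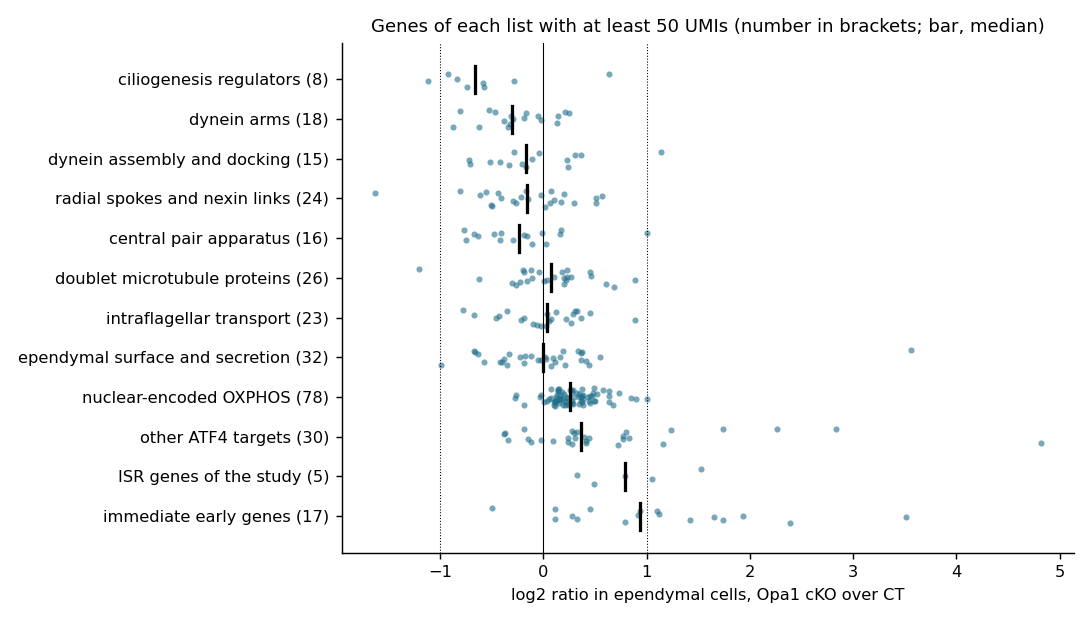
Log2 ratio of Opa1 cKO over CT in ependymal cells for every measured gene of 12 lists (points), with the number of genes in brackets and the list median as a bar; dotted lines mark 2-fold. Cilium lists lie around 0 with ciliogenesis regulators lowest at −0.66, and immediate early genes and ISR genes lie highest at 0.94 and 0.79.

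Among 8 measured of 19 regulators of ciliogenesis, 1 was at least 2-fold lower and 0 higher, beside 3.9% and 4.74% of all genes. Of their intervals, 3 lay below 0 and 0 above, beside 9.6% and 6.95%. Their median was −0.66, with Myb, a driver of multiciliated differentiation, at 204.9 and 108.2 CPM (−0.92, −1.38 to −0.44) and Rfx3, a factor that binds cilium promoters, at 150.5 and 84 CPM (−0.84, −1.37 to −0.28). Ccp110, a cap of the mother centriole, was at −1.12 (−2.0 to −0.15), but also at −1.39 in oligodendrocytes. Rfx2 was at 0.64 (−0.34 to 1.81). The NSC pool had a median of −0.46 for this list. The early regulators Mcidas and Foxn4 had 0 UMIs, and Gmnc 0 and 8.

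Structural parts of the axoneme differed in small steps. Dynein arm genes had a median of −0.30 over 18, with the light chain Dnal1 at −0.87 (−1.46 to −0.23), the heavy chain Dnah7a at −0.81 (−1.47 to −0.09) and the most abundant heavy chain, Dnah12, at 434.8 and 418.9 CPM (−0.05). Dnah7a has a close copy, Dnah7b, at 0.21 (−0.74 to 1.32), and reads of the pair may be split between them. Dynein assembly and docking factors had a median of −0.17 over 15, with the docking protein Ccdc114 at −0.72 (−1.18 to −0.23) and the assembly factor Dnaaf4 at 1.14 (−0.14 to 2.80) on 5 CT UMIs. Central pair genes had −0.24 over 16, with 1 at least 2-fold higher, Cfap221 at 1.00 on 4 CT UMIs, and 0 lower. Of their intervals 5 lay below 0: those of Cfap69 (−0.77), Cfap54 (−0.75), Cfap46 (−0.67), Cfap65 (−0.63) and Ak7 (−0.41). None lay above 0. Over all genes, intervals lay below 0 for 9.6% and above 0 for 6.95%. Cfap54 had 422.3 and 251.5 CPM (−1.06 to −0.42).

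Radial spoke and nexin link genes had a median of −0.16 over 24. Rsph10b, a spoke protein (chr5:143933035-143985719, plus strand), was among the 10 lowest of all genes, with 46 and 113 UMIs, 192.3 and 62.04 CPM (−1.63, −2.14 to −1.10). It was as low in Opa1 cKO cells below 1%, at 62.03 CPM, as in those at 3% or more, at 76.21 CPM, and had 0 UMIs in oligodendrocytes of either library. Other spoke and link genes were higher, with the spoke protein Nme5 at 0.51 (0.19 to 0.83) and Drc3 of the nexin link at 0.51 (0.12 to 0.92). Doublet microtubule genes had a median of 0.07 over 26, from the tektin Tekt2 at −1.20 (−2.12 to −0.18) and the inner microtubule protein Mns1 at −0.62 (−1.01 to −0.22) to Enkur at 0.68 (0.31 to 1.07). The tubulin gene Tuba1a, the most abundant, had 3211 and 3758 CPM (0.23, 0.12 to 0.34). Intraflagellar transport genes, which carry cargo along the axoneme, had a median of 0.04 over 23, between Ift80 at −0.78 (−1.32 to −0.20) and Ift74 at 0.89 (0.04 to 1.87).

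Rfx factors bind the X-box. The X-box consensus, searched on both strands of the same 300-base windows with no mismatch, occurred in 0.355% of 27025 genes and in 3 of the 126 cilium genes that matched the promoter table, 2.38%. The windows are given in the same way, with the motif in capitals, to show the element beside the Rfx3 values.
Iqca, chr1:90153515-90153544, minus strand: gccttgcaGTTGCCACGGAAACggaaacat
Ttc26, chr6:38381483-38381512, plus strand: ccggcggcGTTGCCGTGGAAACggagctcg
Pifo, chr3:106001496-106001525, minus strand, motif on the other strand: gcggttccGTTCCCTTGGCAACgtagtaca
Iqca, a nexin link protein, was at −0.02, Ttc26, an intraflagellar transport protein, at 0.04 and Pifo, a ciliary protein, at 0.23, so the 3 genes were near the median of all genes. A window without the consensus says nothing about binding.

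Genes of the ependymal surface and of secretion had a median of 0.00 over 32 of 37, with 1 at least 2-fold higher, Igfbp7, and 0 lower. Dbi, the acyl-CoA binding protein and the most abundant of them, was at 25990 and 26510 CPM (0.03, −0.01 to 0.07). Mia, a secreted matrix protein, was at 1631 and 1025 CPM (−0.67, −0.83 to −0.51), Nnat, a small membrane proteolipid, at 4177 and 5371 CPM (0.36, 0.27 to 0.46) and the tetraspanin Cd9 at 1434 and 1942 CPM (0.44, 0.28 to 0.60). Cd9 had the same ratio of 0.44 in oligodendrocytes, whereas Nnat was at −0.68 and Mia at −0.80 in the NSC pool. Ecrg4, a secreted peptide precursor, was at 1091 and 1077 CPM.

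Within the Opa1 cKO library, the 353 ependymal cells below 1% mitochondrial share were then compared with the 51 cells at 3% or more. Near the cuts, 25 cells lay from 0.9% to 1% and 19 from 1% to 1.1%, the nearest at 0.997% and 1%, and 11 lay from 2.5% to 3% and 6 from 3% to 3.5%, the nearest at 2.998% and 3.053%. The groups had median depths of 3254 and 3064 UMIs, and YFP was detected in 50.71% and 39.22% of their cells. Of 4634 genes with at least 50 UMIs over both groups, 4.86% were at least 2-fold higher and 2.72% at least 2-fold lower in the low group, with a median of 0.04. Intervals lay above 0 for 5.89% and below 0 for 5.48%. The high group held fewer UMIs, so a gene can pass this minimum through the low group alone. The mitochondrial genes, which set the groups, are left out.

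The ISR sum differed between these groups by less than its counting error. These genes summed to 568.1 CPM in the low and 627.2 in the high group, −0.14 (−0.44 to 0.16), and their median was −0.20 over 5 measured, with 0 past 2-fold in either direction. At wider cuts, 145 cells below 0.5% and 23 at 5% or more, the sum was instead higher in the low group, at 0.78 (0.14 to 1.49), and with 1 cut at 2% the median was −0.55 (medians of the genes' bounds, −1.24 and −0.07). The direction thus rests on where the cuts lie. Slc3a2 stood at 294.7, 324.2 and 293.1 CPM in cells below 1%, from 1% to 3% and at 3% or more. Slc7a11 went from 111.8 to 126.9 and 170 CPM, with an interval that touched 0 (−0.60, −1.19 to 0.03). Among other ATF4 targets, Atf5 was higher in the low group, with 130.6, 105.7 and 58.62 CPM (1.16, 0.24 to 2.24), and Atf3 ran the other way with 73.46, 79.88 and 170 CPM (−1.21, −1.83 to −0.55). Other ATF4 targets had a median of 0.20 over 24. Of these, 4 were at least 2-fold higher and 1 lower, beside 4.86% and 2.72% of all genes. Intervals lay above 0 for 2 and below 0 for 2, beside 5.89% and 5.48%.

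Several other lists differed by small amounts. The respiratory chain genes of the nucleus had a median of −0.04 over 78 and immediate early genes −0.00 over 16, and 0 and 1 of their genes were past 2-fold. Cilium genes had a median of 0.17 over 119, with 4 at least 2-fold higher and 0 lower, but −0.06 over 96 without cells that met the NSC pool minimum. Among cilium lists, dynein assembly and docking genes had a median of 0.39 over 14, with 0 past 2-fold, and intraflagellar transport genes 0.37 over 21, with 2 at least 2-fold higher, Ift46 and Ift81. Ribosomal protein genes had a median of 0.20 over 77 with 30 intervals above 0, beside 5.89% of all genes. Cholesterol synthesis genes summed to −0.59 (−0.82 to −0.35), with a median of −0.26 and 2 of 7 measured at least 2-fold lower, Fdft1 and Msmo1. Glycolysis genes, which include Aldoc, summed to −0.36 (−0.45 to −0.28). Their median was −0.08 over 18, with 1 at least 2-fold higher and 1 lower. Pdia4, a disulfide isomerase of the endoplasmic reticulum, was at 349.4 CPM in the low and 146.6 CPM in the high group (1.25, 0.67 to 1.90) and at 397.2 CPM in CT. Set against CT, the high group was at −1.44 (−2.14 to −0.79), among the 10 lowest genes of that comparison, while the intervals of CT and the low group overlapped. Gpx8, a peroxidase of the same compartment, was at 242.4 and 105.5 CPM (1.20, 0.51 to 1.97) and at 142.2 CPM in CT. Hdc, histidine decarboxylase, was at 531.4 and 293.1 CPM (0.86, 0.44 to 1.30) and at 418.1 CPM in CT. Dynlt1c, 1 of several near-identical dynein light chain genes and therefore uncertain, had 58 and 0 UMIs. Its log2 ratio was 1.43 with the high group set at 3 counts (lower bound 1.08). Gnai3, Mpdz, Retreg1 and Rassf4 were also among the 10 genes with the highest lower bounds, each on 2 to 4 UMIs in the high group, and passed the minimum through the low group alone.

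Transcripts of astrocytes were lower in the low group. The list of astrocyte and NSC markers had a median of −0.98 over 13 measured, with 6 at least 2-fold lower and 0 higher, beside 2.72% of all genes, and 12 intervals below 0, beside 5.48%. Aldoc, an aldolase of astrocytes, was at 775.4 CPM in the low and 2040 CPM in the high group (−1.40, −1.57 to −1.21). The glutamate transporter Slc1a2 was at 512.6 and 1348 CPM (−1.40, −1.62 to −1.17) and the neurotensin receptor Ntsr2 at 156.7 and 592.1 CPM (−1.92, −2.27 to −1.56). Outside the list, Cst3, the secreted protease inhibitor cystatin C, was at 2770 and 11820 CPM (−2.09, −2.17 to −2.01), and Cldn10, a claudin, at 112.6 and 656.5 CPM (−2.54, −2.91 to −2.17). Summed, the list took 4312 CPM in the low and 9092 CPM in the high group, and 4353 CPM in CT.

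**Figure D5:**
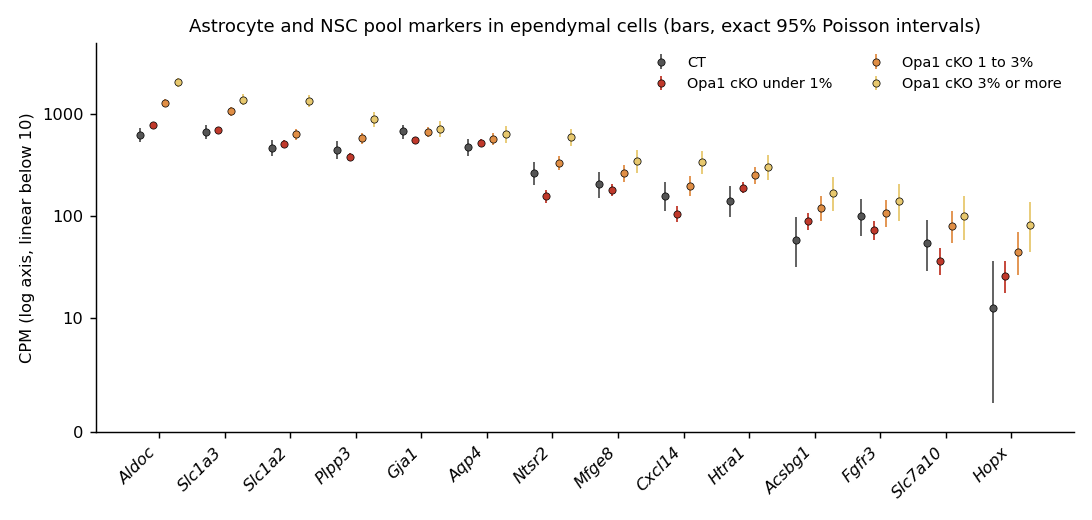
CPM of the 14 astrocyte and NSC pool markers in CT ependymal cells and in Opa1 cKO ependymal cells by mitochondrial share; bars are exact 95% Poisson intervals and the axis is logarithmic above 10. Aldoc is at 627.2 CPM in CT and at 775.4, 1280 and 2040 CPM in the 3 Opa1 cKO groups, and within Opa1 cKO the other markers take the same order, while CT lies above the lowest group for some, such as Ntsr2 and Gja1.

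Per cell, the groups were closer than these sums. The median ependymal cell had 3.19 UMIs of the list per 1000 UMIs of genes that are not mitochondrially encoded in CT, 3 in Opa1 cKO cells below 1%, 3.6 from 1% to 3% and 4.28 at 3% or more. The upper quartiles were 4.34, 4.15, 5.35 and 7.44 in the same order. Few cells carried much of the sum at 3% or more, where 5 of 51 cells held 41.7% of the list's UMIs. In CT, 5 of 94 cells held 30.6%, and below 1%, 5 of 353 held 10.7%, shares that also depend on the number of cells. Without the cells that also met the NSC pool minimum, which left 205 and 30 cells, the list's median was −0.27 over 8 measured with 0 past 2-fold. The sum was then −0.33 (−0.53 to −0.13). The removed cells were picked by markers of the same cell types, so the filter itself makes this list's difference smaller. The same holds wherever this list is read without those cells. Whether these transcripts came from other cells was not tested, and neither was their part in the values of single genes such as Cst3.

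Lastly, the 51 Opa1 cKO cells at 3% or more were set beside the 94 CT cells. Their pooled mitochondrial shares were 4.952% and 6.578%. Of 1550 genes with at least 50 UMIs over both groups, 3.1% were at least 2-fold higher and 2.9% lower in these Opa1 cKO cells. Among lists with at least 5 measured genes, that of astrocyte and NSC pool markers had the highest median, 1.08 over 10, with 6 at least 2-fold higher. Without cells that met the NSC pool minimum, a filter on markers of the same cell types, its median was 0.22 over 6. The ISR list had only 1 measured gene here, Slc3a2. Cldn10, Cst3, Aldoc, Cspg5 and Glul had the highest lower bounds, at 1.54, 1.43, 1.42, 1.37 and 1.20, with log2 ratios of 2.09, 1.55, 1.70, 2.05 and 1.54. The ISR sum was 627.2 CPM, with 276 in CT (1.18, 0.73 to 1.65), and Slc3a2 was at 1.49. Without cells that met the NSC pool minimum, which left 30 and 63 cells, the ISR sum was at 0.64 with an interval that spans 0 (−0.20 to 1.48). Immediate early genes had a median of 0.88 over 8 and nuclear respiratory chain genes 0.29 over 74. These values stand beside 1.10, 0.94 and 0.26 for the ISR sum and both medians in all Opa1 cKO ependymal cells, a comparison that uses the same CT cells. Cilium genes had a median of −0.29 over 62, with 0 at least 2-fold higher and 3 lower, but 0.09 over 32 with 0 past 2-fold without cells that met the NSC pool minimum. Actb (−1.24, −1.42 to −1.06), Rps27rt (−1.41, −1.86 to −0.97) and Pam (−1.63, −2.67 to −0.70), which were lower in every class, were among the lowest here too.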

How the data were processed

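Single-cell 3′ RNA sequencing was done on YFP+ hippocampal cells, 1 library per genotype with 3 mice pooled. The authors deposited raw UMI counts per gene and cell barcode, aligned to mm10 with Cell Ranger (2.1.1 in the submitters' notes, 3.1.0 in the matrix header). CT held 10799936 UMIs in 4634 barcodes and Opa1 cKO 18662032 in 6475. The 22625 identifiers were joined to 22587 symbols. No per-sample column was left out. No doublet caller was run, and cells with markers of another class are counted in the text.

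UMIs were summed over cells and scaled to CPM without mitochondrially encoded genes. Intervals of log2 ratios are exact and conditional on the sum of both counts, those of CPM exact Poisson and those of shares Clopper-Pearson (all 95%). Only the intervals of log2 ratios were checked on simulated data. Those data were independent Poisson counts, so the check cannot speak to UMIs that are clumped in few cells. Genes with 0 UMIs in a group were set at 3 counts. Shares of cells with a gene were also read after thinning to 1500 UMIs. Comparison classes needed several markers of a fixed list, and cells meeting 2 classes were left out.

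The members and gene lists were chosen with earlier results of these data known. Genes named are the 8 markers, Opa1, the ISR genes and mitokines, from each other list the members with most UMIs or the ratio farthest from 0, and for each comparison the 10 genes with the highest lower and the 10 with the lowest upper bound, leaving out genes of which 1 cell held over 20%. Other genes named were chosen after their values were seen. Coordinates are from GENCODE M21 (757 of 758 identifiers matched) and promoters from RefSeq on GRCm38.p6. Python 3.11.15, numpy 2.4.6, scipy 1.17.1, pandas 2.3.3 and matplotlib 3.10.9 were used.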

Additional observations from a re-analysis of the deposited data

How the results depend on the processing

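Of 188 values recomputed for 16 results under 13 alternatives, 161 stayed within their counting interval or within 1.5 times the main count. For list medians this interval is the median of the single genes' bounds, so a median can shift much and stay inside. That of other ATF4 targets, 0.36, counted as inside at 0.95 with a YFP UMI required. Some of the 161 could not move, such as cell counts under another minimum of UMIs per gene. The count of 161 is thus no measure of stability. Of the ISR, ATF4 target, cilium and nuclear respiratory chain medians and the mitochondrial sum, none changed sign in the comparison of all Opa1 cKO cells with CT, whereas the median of astrocyte and NSC markers, 0.15, was −0.13 without NSC pool cells. Within Opa1 cKO, medians near 0 did: that of the ISR genes (−0.20) was 0.11 with markers counted after thinning, 0.01 at a minimum of 200 UMIs and 0.33 without NSC pool cells, that of cilium genes (0.17) was −0.07 at cuts of 0.5% and 5% and −0.06 without NSC pool cells, and that of nuclear respiratory chain genes (−0.04) was 0.03 with all UMIs as denominator. Restriction to cells with 2000 to 4000 UMIs and removal of cells that met the NSC pool minimum were chosen after the data were seen. Ependymal cells numbered 39 in CT and 257 in Opa1 cKO with a YFP UMI required, 303 in Opa1 cKO without NSC pool cells, and 339 at 2000 to 4000 UMIs, where 70.5% were below 1% mitochondrial share. The summed mitochondrial ratio of −2.42 was −2.45 with a YFP UMI, −2.46 as a mean over cells, −2.45 with markers counted after thinning, −2.47 without NSC pool cells and −2.51 at 2000 to 4000 UMIs. The 292 genes at least 2-fold higher and 240 lower in Opa1 cKO became 671 and 647 at a minimum of 20 UMIs, 27 and 8 at 200, 148 and 117 without NSC pool cells, and 156 and 118 at 2000 to 4000 UMIs. Within Opa1 cKO, the 225 higher genes became 657 and 6 at minima of 20 and 200 UMIs. The 126 lower genes became 471 and 16 at those minima, 73 with a YFP UMI, 34 at cuts of 0.5% and 5%, 38 without NSC pool cells and 58 at 2000 to 4000 UMIs. A higher minimum tests fewer genes, and fewer cells leave fewer genes measured. The ISR median within Opa1 cKO, −0.20, was 1.66 at cuts of 0.5% and 5%, where 145 and 23 cells and only 2 genes were left, and the ISR sum was then 0.78 (0.14 to 1.49). The cause of the other shifts was not tested. No paired analysis was possible because each genotype has 1 library and the labels give no replicate numbers. Splitting cells by sex-linked transcripts was not run, as Xist was not among the features and Y-linked UMIs were seen in only 24 CT and 28 Opa1 cKO cells. With 94 CT cells, values of genes under 50 UMIs, such as Opa1, Asns and Gdf15, have wide intervals and enter no count of genes past 2-fold.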
